A study of Caenorhabditis elegans with 4 samples.

Results

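The cytosolic ribosome of Caenorhabditis elegans was followed through the genes of its protein subunits, in adults that carry a glp-4 mutation. Members were all genes on the array whose symbol was rps, rpl or rla followed by a number, which gave 52 genes on 58 probes, of 14958 named genes and 20140 features in all. Of these, 22 belonged to the small subunit (rps) and 30 to the large subunit (rpl), no symbol began with rla, and all 52 had a value on every array. Each of 4 spotted arrays carried a wild-type mixed reference RNA in channel 1 and RNA of one of 4 glp-4 adult preps in channel 2. The labels give no allele, growth temperature, age or strain background, do not say what was mixed in the reference, and do not state whether the preps came from separate cultures, so p-values measure only the spread between preps, which may be technical. Every value is a log2 ratio, likely glp-4 adults over reference, since the array descriptions and channel order run that way but no dye is named. If it runs the other way, all signs below are reversed.

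A cytosolic ribosome has a small subunit, which reads the mRNA, and a large subunit, which joins the amino acids, and each subunit is built in the nucleolus from ribosomal RNA and its proteins, most of them in single copy. Because the proteins are needed in fixed amounts, their genes are usually expressed together, and ribosome production is high in growing and dividing tissue. In the worm most ribosomal proteins come from a single gene, while a few have a pair of gene copies. A valyl-tRNA synthetase is the product of glp-4, and temperature-sensitive mutants raised warm reach adulthood with a germ line that holds few cells.

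The arrays had medians between -0.0695 and 0.0759 over all spots, so a ratio compares a transcript with the other transcripts on its array and not with the amount per worm. Germ cell and oocyte markers were lower, 10 of 10, with a median log2 ratio of -3.80, and the yolk receptor gene rme-2 and the eggshell gene cpg-2 were among them. Major sperm protein genes were lower in 29 of 30 cases, with a median of -3.13. Intestinal markers were higher, 8 of 8, with a median of 2.56, as were muscle markers, 5 of 5, with a median of 1.11. The muscle count fell to 2 without prep 1 and to 3 without prep 2 or prep 3, and it was 2 on preps 3 and 4 alone. Of 6 neuron markers 4 were lower, and of 5 epidermis markers 2 were higher and 2 lower. The part of these tissues in the ribosomal protein ratios was not tested, and in RNA of whole worms fewer cells of a type and less RNA per cell cannot be told apart.

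Most ribosomal protein genes lay close to the reference level. Of 52 genes, the rpl-11 pair passed the test: 1 was higher and 1 lower (limma, Benjamini-Hochberg adjusted p under 0.05 over 19981 features), while over all features 37.9% passed, 17.0% higher and 20.9% lower. At an unadjusted p under 0.05, 2 ribosomal protein genes were higher and 2 lower, together 7.69%, against 48.9% of all features. The median of the 52 mean log2 ratios was 0.02, beside 0.0037 for all features tested. The means lay within 0.5 of 0 for 49 genes (94.2%), all but rpl-11.1, rpl-32 and rpl-11.2, against 10791 of the 19981 features. The 95% limma interval lay within 1 log2 unit of 0, a 2-fold difference, for 49 of the 52 genes, against 56.5% of all features. The exceptions to the interval were rpl-11.1, rpl-32 and rpl-39.

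**Figure D1:**
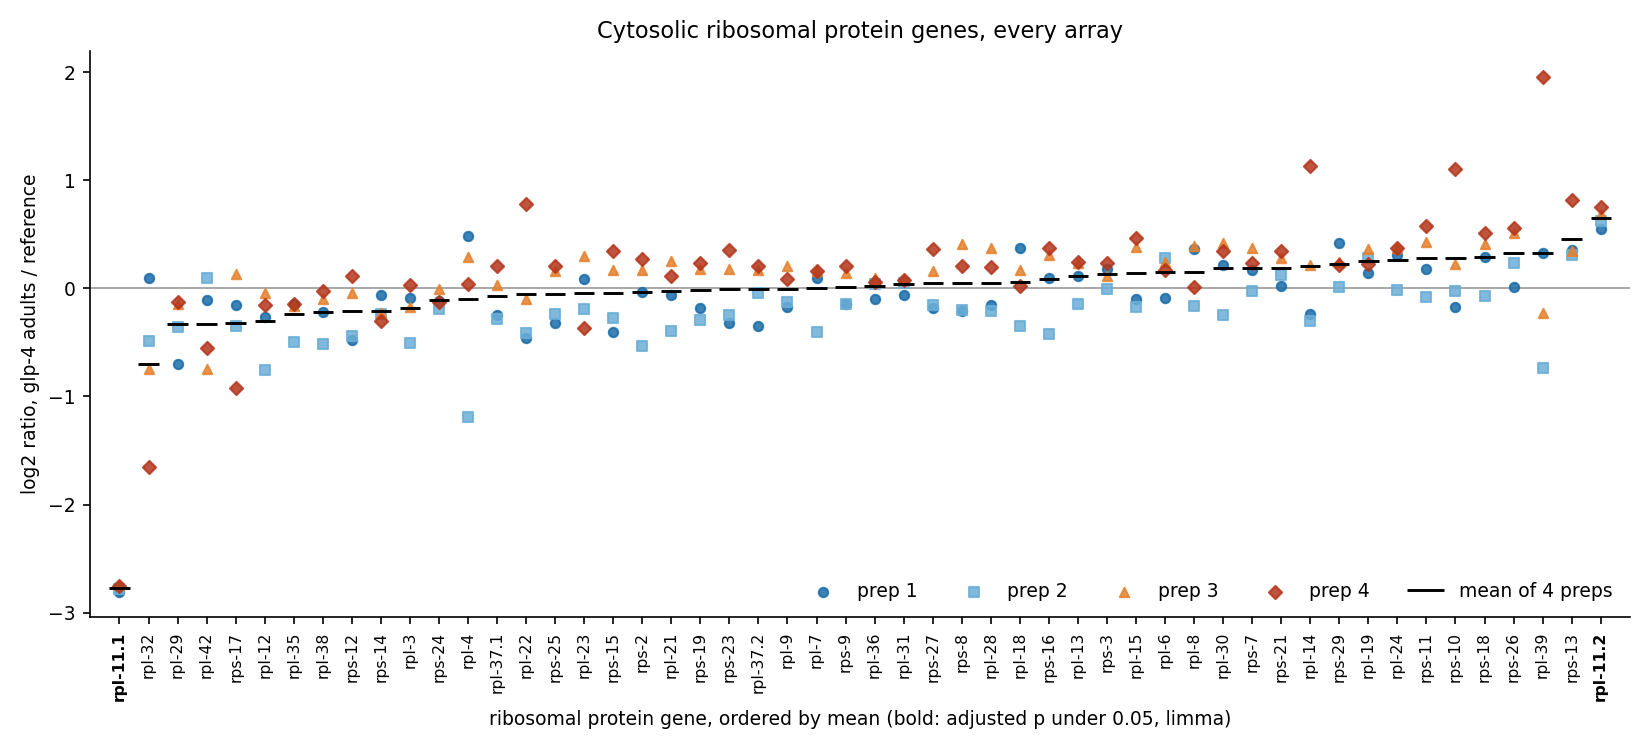
Log2 ratio (glp-4 adults over reference, y axis) of each of 52 ribosomal protein genes (x axis, ordered by mean) on each of 4 arrays, 1 symbol per prep, with a bar at the mean. The gene rpl-11.1 sits near -2.8 on every array, rpl-11.2 is the highest by its mean, and the other 50 means run from -0.70 to 0.46.

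The RPL11 protein of the large subunit joins the ribosome as a complex with RPL5 and the 5S ribosomal RNA. The worm has 2 genes for it, rpl-11.1 (T22F3.4) on chromosome V and rpl-11.2 (F07D10.1) on the X chromosome, per the RefSeq table of assembly WBcel235. In the worm, transcription from the X chromosome is low in much of the germ line, and rpl-11.1 is known as the autosomal copy needed for germ cell proliferation.

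The gene rpl-11.1 had log2 ratios of -2.81, -2.79, -2.75 and -2.76 on preps 1 to 4. Its mean was -2.77 ± 0.03 (SD, n = 4 preps), 6.84-fold lower in glp-4 adults, with a limma adjusted p of 7.8e-05. All arrays were low by nearly the same amount, and 0.971% of the features tested had a lower mean. The gene rpl-11.2 had 0.55, 0.63, 0.69 and 0.75, above 0 on every array. Its mean was 0.66 ± 0.09 (SD, n = 4 preps), 1.58-fold higher, with a limma adjusted p of 0.0109, and 15.9% of the features tested had a higher mean. With 1 prep left out the limma adjusted p was 0.029, 0.0305, 0.0435 and 0.0506 without preps 1 to 4 in turn. Only the fit without prep 4 missed the threshold, and the mean stayed between 0.62 and 0.69. The mean was 0.59 on preps 1 and 2 alone (limma adjusted p = 0.152) and 0.72 on preps 3 and 4 alone (limma adjusted p = 0.057). The corresponding values of rpl-11.1, -2.80 and -2.75, passed within both pairs.

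On every array rpl-11.1 lay below rpl-11.2, and the difference, rpl-11.1 minus rpl-11.2, ran from -3.51 on prep 4 to -3.36 on prep 1. Its mean was -3.43 ± 0.06 (SD, n = 4 preps), a 10.8-fold gap between the ratios of both genes, not between their levels. The highest value of rpl-11.1 was -2.75 and the lowest of rpl-11.2 was 0.55, so they did not overlap. The exact two-sided sign permutation test gave p = 0.13, the smallest that 4 preps allow, and 0.25 after adjustment over the 2 pairs tested. Copies of a gene can share sequence, and how far a spot of one copy also binds the other was not tested.

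The other numbered pair, rpl-37.1 and rpl-37.2, encodes RPL37, a small zinc-binding protein of the large subunit. The gene rpl-37.1 had log2 ratios of -0.25, -0.29, 0.03 and 0.21 on preps 1 to 4, and rpl-37.2 had -0.35, -0.05, 0.17 and 0.21. Both were below 0 on preps 1 and 2 and above 0 on preps 3 and 4, and the ranges of the genes overlapped. Their difference was -0.07 ± 0.15 (SD, n = 4 preps, exact sign permutation p = 0.50), and the sign of the mean of rpl-37.2 (-0.0034) changed with the prep left out.

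**Figure D2:**
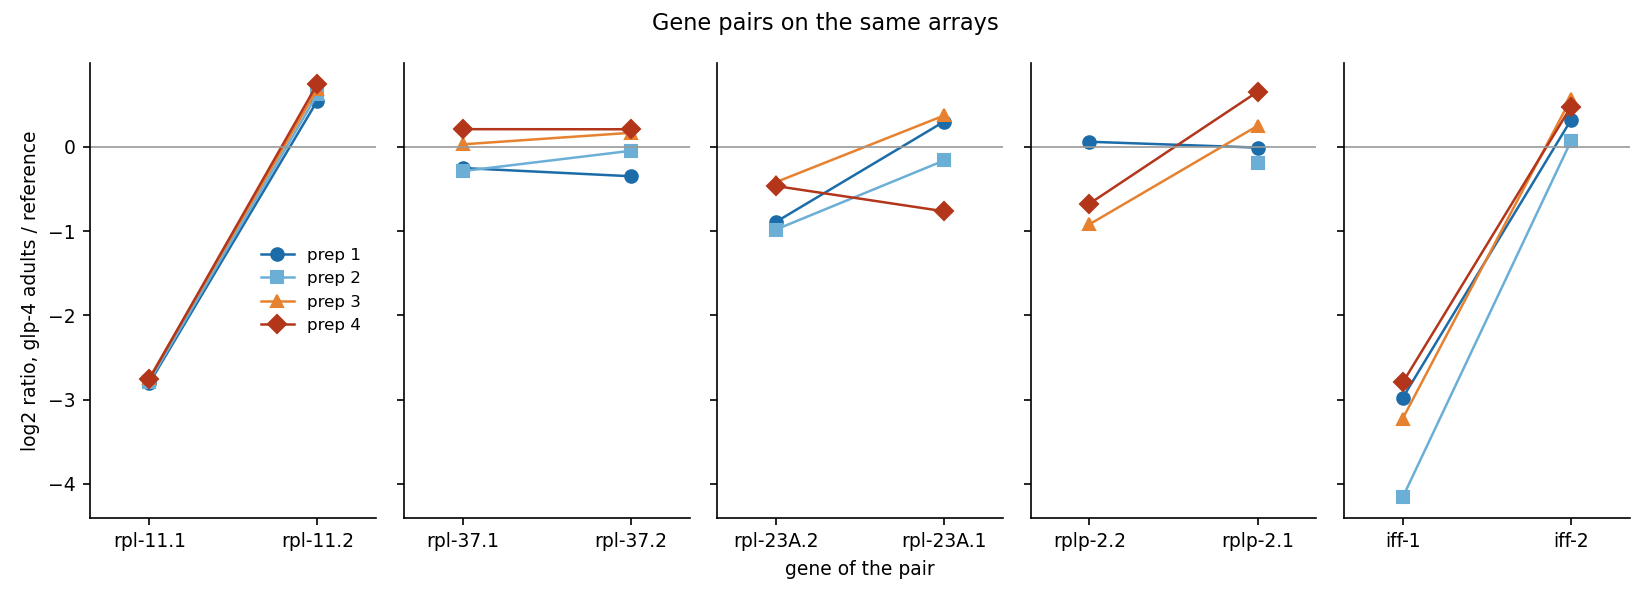
Log2 ratio (y axis) of both genes of 5 pairs (x axis), with a line joining the values of 1 array. Of the 5 pairs, only rpl-11 and rpl-37 were tested. The rpl-11 and iff lines all climb by more than 3 log2 units, from below -2.7 to above 0, and the rpl-37 lines are nearly flat. The single value of rplp-2.1 without a line is from prep 2, where rplp-2.2 has no value.

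Of the 22 small subunit genes, 0 passed the threshold in limma and 1 had an unadjusted p under 0.05, with a median log2 ratio of 0.05. Over all features 37.9% and 48.9% did so. The gene closest to the threshold was rps-13, with 0.35, 0.31, 0.35 and 0.82 on preps 1 to 4. It was above 0 on every array and highest on prep 4 (mean 0.46 ± 0.24, SD, n = 4 preps, limma adjusted p = 0.0595). It passed when the arrays were scaled to one spread (limma adjusted p = 0.0495), and under its other alternatives the limma adjusted p reached 0.352. The gene rps-26, whose protein lies at the mRNA exit channel in yeast and mammals, had 0.02, 0.23, 0.51 and 0.56 (mean 0.33 ± 0.25), and rps-18, whose protein is in the head of the subunit, had 0.29, -0.07, 0.41 and 0.52 (mean 0.29 ± 0.26). Neither passed, nor did rps-10 (0.28 ± 0.57), rps-11 (0.28 ± 0.29) and the zinc-binding rps-29 (0.22 ± 0.17). For rps-10 the mean rests on prep 4, with 1.10 there and values from -0.17 to 0.22 on the others.

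Below 0 among the small subunit genes, rps-17 had -0.15, -0.34, 0.13 and -0.92 (mean -0.32 ± 0.45). Its lowest value was on prep 4, the array on which most of its partners were above 0. The genes rps-12 (-0.21 ± 0.29) and rps-14 (-0.21 ± 0.10), the latter for a protein of the platform of the subunit, also missed the threshold, and 2 probes of rps-14 gave means of -0.20 and -0.22. Genes for proteins of the decoding site and the mRNA entry channel, rps-23, rps-2 and rps-3, had means between -0.03 and 0.13. The 13 small subunit means above 0 reached 0.46 and the 9 below 0 reached -0.32.

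Of the 30 large subunit genes, the rpl-11 pair passed the threshold, and the other 28 did not. That is 3.33% in each direction, beside 17.0% higher and 20.9% lower over all features. The median log2 ratio was 0.0017, and 15 means lay on each side of 0. The lowest after rpl-11.1 was rpl-32, with 0.09, -0.49, -0.75 and -1.65 on preps 1 to 4. The arrays disagreed on its sign and size (mean -0.70 ± 0.72, SD, n = 4 preps, limma adjusted p = 0.0834). Without prep 1 it was lower (-0.96, limma adjusted p = 0.0393), as on preps 3 and 4 alone (-1.20, limma adjusted p = 0.0439). The limma adjusted p reached 0.622 on preps 1 and 2 alone.

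The gene rpl-39, for a short protein that lines the exit tunnel of the growing chain in yeast and mammals, had 0.33, -0.74, -0.22 and 1.96. Its values spread over more than 2 log2 units and its mean of 0.33 ± 1.17 rests on prep 4, without which it was -0.21. The gene rpl-4, for another protein of the tunnel wall, ranged from -1.19 on prep 2 to 0.49 on prep 1, with a mean of -0.09 ± 0.75. At the mouth of the tunnel, rpl-35 had a mean of -0.24 ± 0.17, rpl-19 one of 0.25 ± 0.09 and rpl-31 one of 0.04 ± 0.07, and none passed. For rpl-19 every array was above 0, from 0.14 on prep 1 to 0.36 on prep 3.

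The remaining named large subunit genes were rpl-29 (-0.33 ± 0.26), rpl-12, whose protein forms the base of the stalk that binds elongation factors (-0.30 ± 0.32), rpl-38 (-0.21 ± 0.22), rpl-42 (-0.33 ± 0.39) and rpl-24 (0.26 ± 0.19). The 2 probes of rpl-42 disagreed, with means of -0.76 and 0.11, and tested singly the first passed (limma adjusted p = 0.0131). The other 5 genes with 2 probes differed less between them, by means of 0.09 and -0.18 for rpl-22 at most. The gene rpl-3, for a protein near the site of peptide bond formation, had means of -0.27 and -0.10 on its probes.

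Ribosomal protein genes shifted together between arrays. Their median was -0.09 and -0.20 on preps 1 and 2 and 0.18 and 0.21 on preps 3 and 4, while all features had medians of 0.08, -0.04, -0.07 and -0.03. For 35 of the 52 genes (67.3%) both preps 3 and 4 lay above both preps 1 and 2, against 22.9% of all features with 4 values, and for 2 genes (3.85%) both lay below, against 17.1%. The median of the 52 means was -0.15 within preps 1 and 2, whose array titles share a prefix, and 0.20 within preps 3 and 4, whose titles share a date. As blocks these pairs were chosen after seeing the data. Over features with 4 values the blocks had a correlation of -0.06. The lowest value was on prep 2 for 27 genes (51.9%, against 32.5% of all features) and on prep 1 for 20 (38.5%, against 23.6%). The shift was not particular to these genes. Medians on preps 1 to 4 were -0.47, -0.40, -0.19 and 0.01 for mitochondrial ribosomal protein genes. They were -0.15, -0.18, 0.19 and 0.08 for genes of the elongation list and -0.46, -0.46, -0.06 and -0.23 for initiation genes. Assembly genes had -1.16, -1.26, -0.70 and -1.01. The TOR list did not show it, with -0.04, 0.03, 0.17 and -0.07. Whether arrays or worm preps differed cannot be told apart. Over the 50 genes besides the rpl-11 pair, the SD between preps had a median of 0.27, against 0.35 for all features.

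Both subunits shifted alike. The median of the small subunit genes minus that of the large was 0.0016, 0.09, 0.0096 and 0.16 on preps 1 to 4, or 0.06 ± 0.07 (SD, n = 4 preps), a gap no wider than its spread.

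**Figure D3:**
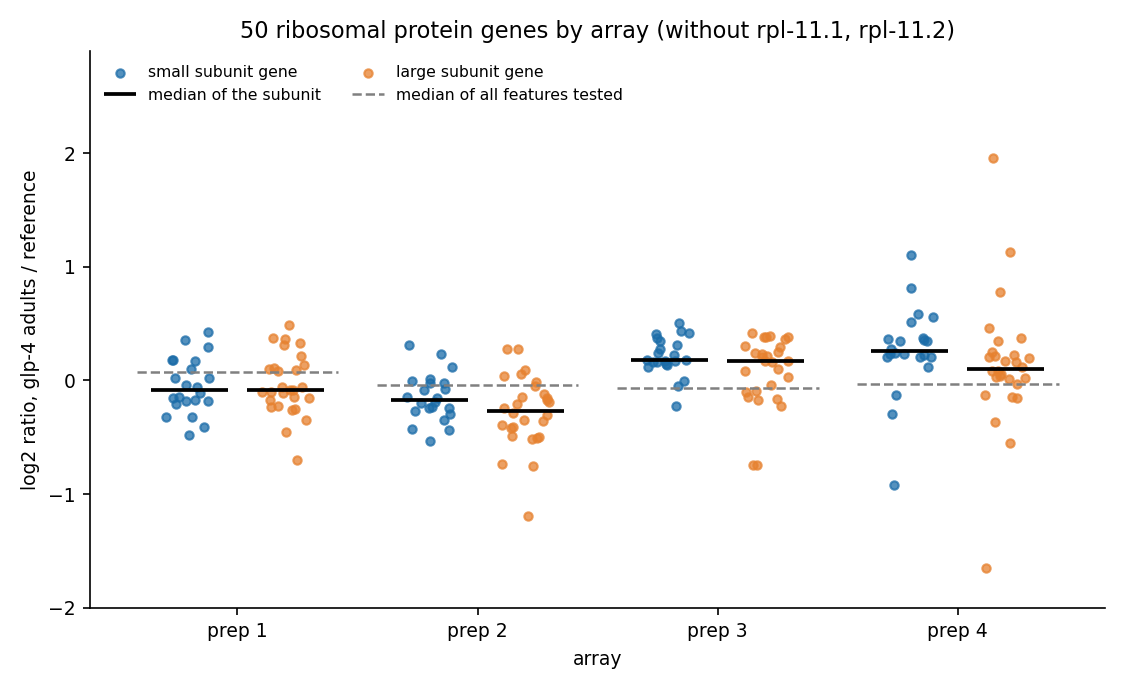
Log2 ratio (y axis) of 50 ribosomal protein genes, without the rpl-11 pair, on each array (x axis), by subunit, with solid bars at the subunit medians and dashed lines at the median of all features tested. Both subunit medians lie below the dashed line on preps 1 and 2 and above it on preps 3 and 4.

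By position, 14 of the genes were on chromosome I (median 0.15), 14 on III (-0.0021), 11 on IV (-0.0064), 7 on V (0.05) and 5 on II (-0.07), and rpl-11.2 was the single X-linked member. Of the genes that are direct neighbours in RefSeq, rps-10 and rpl-24 had means of 0.28 and 0.26, and rps-14 and rpl-36 had -0.21 and 0.02.

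A further 15 genes for ribosomal or ribosome-bound proteins have symbols outside the pattern, with a median of 0.04. Of these, 0 were higher and 1 was lower in limma (1 and 1 at an unadjusted p under 0.05). The 6.67% lower lies beside 20.9% of all features, with 17.0% of all features higher. The lower gene was rpl-23A.2 (F52B5.6), 1 of 2 genes for RPL23A, a protein at the exit of the tunnel, with -0.89, -0.98, -0.42 and -0.46 on preps 1 to 4. All 4 arrays were below 0 (mean -0.69 ± 0.29, 1.61-fold lower, limma adjusted p = 0.0177), but without prep 1 or prep 2 the limma adjusted p was 0.0610 or 0.0603, and across all alternatives it lay between 0.0153 and 0.161. Its X-linked copy rpl-23A.1 (F55D10.2) had 0.30, -0.16, 0.37 and -0.76 (mean -0.06 ± 0.52). The difference, rpl-23A.2 minus rpl-23A.1, was below 0 on preps 1 to 3 (-1.19 to -0.79) and 0.30 on prep 4. This pair was singled out after its values were seen and was not tested.

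For the stalk itself, rplp-0 had 0.29, 0.18, 0.72 and 0.48 (mean 0.42 ± 0.24, limma adjusted p = 0.0767). The stalk gene rplp-2.1 had a mean of 0.18 ± 0.37 and its copy rplp-2.2 one of -0.51 ± 0.51 on 3 arrays. The receptor for activated kinase gene rack-1, whose product sits on the small subunit, had 0.24, and ubq-2, which encodes a ubiquitin fused to a ribosomal protein, had -0.28. None of these 5 passed.

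Genes listed under ribosome assembly did not share the level of the ribosomal protein genes. The list is broad and includes RNA polymerase I subunit genes (rpoa-2, rpoa-12) and RNA exosome genes such as exos-3. Of 37 assembly genes, 32 were lower and 0 higher in limma, also at an unadjusted p under 0.05, with a median log2 ratio of -1.06, beside 20.9% lower and a median of 0.0037 over all features. The list took nop-1, a gene of cleavage in the early embryo and not of ribosome assembly, by its symbol; without it 31 of 36 were lower and the median was -1.02. The lowest were nop-1 (-2.69 ± 0.66), puf-12 (-1.89 ± 0.59) and lpd-7, the gene of a large subunit assembly factor related to pescadillo (-1.89 ± 0.37, SD, n = 4 preps). Named after their values were seen, the nucleolar GTPase gene nog-1 had -1.58, -2.46, -1.50 and -1.79 on preps 1 to 4, and fib-1, for the rRNA methyltransferase fibrillarin, had -1.33, -0.94, -0.51 and -1.16. Both were below 0 on every array, with limma adjusted p of 0.000735 and 0.00566. The list median was below -0.7 on each array, from -1.26 on prep 2 to -0.70 on prep 3. Within the array pairs 18 were lower on preps 1 and 2 and 19 on preps 3 and 4. Over all features, 1847 of 19596 were lower on preps 1 and 2, and 2517 of 19499 on preps 3 and 4.

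Among translation factors, iff-1 and iff-2 were another pair in which one copy lay far below the other. The gene iff-2 was named after its values were seen, and the pair was not tested. Other pairs of numbered genes in these lists were not compared. The genes iff-1 (T05G5.10) and iff-2 (F54C9.1) encode versions of eIF5A, which helps the ribosome through difficult stretches, and iff-1 is known for its need in germ cell proliferation. The log2 ratios of iff-1 were -2.98, -4.16, -3.22 and -2.80, and those of iff-2 were 0.32, 0.07, 0.57 and 0.48. The groups of values did not overlap: iff-1 was lower (-3.29 ± 0.61, 9.77-fold, SD, n = 4 preps, limma adjusted p = 0.000183) and iff-2 did not pass (0.36 ± 0.22, limma adjusted p = 0.110). Neither gene is X-linked. Of 10 genes in the elongation list, 2 were lower and 0 higher in limma, with a median of -0.0044. The share that was lower was near the 20.9% of all features. The list also holds the release factor genes erfa-1 and erfa-3, and none of its eef genes passed. The other lower gene was efk-1, for the kinase of elongation factor eEF2 (-1.99 ± 0.52), while eef-2 itself had -0.29 ± 0.29 and did not pass.

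Of 29 initiation genes, 8 were lower (27.6%, beside 20.9% of all features) and 1 higher (3.45%, beside 17.0%), with a median of -0.29. The cap-binding genes ife-3 (-1.88 ± 0.34) and ife-1 (-1.56 ± 0.16), which in the worm are known from the germ line, and the eIF3 subunit gene eif-3.E (-1.23 ± 0.20) were lowest. The higher gene was ife-2, a cap-binding gene known from somatic tissue, with 0.48, 0.61, 1.23 and 1.22 (mean 0.88 ± 0.40, limma adjusted p = 0.0106). Of 19 tRNA synthetase genes, taken by symbol so that mitochondrial enzymes may be among them, 4 were lower and 0 higher (7 and 1 at an unadjusted p under 0.05), with a median of -0.22. The 21.1% lower was near the 20.9% of all features. The furthest from 0 were fars-1 (-1.72 ± 0.73), lars-1 (-0.89 ± 0.42) and rars-1 (-0.77 ± 0.16), and the glp-4 gene itself was not analysed here.

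Of 6 genes listed as factors that meet the growing chain at the ribosome, 3 were higher and 3 lower in limma on all 4 arrays together. Among the 3 lower genes, tct-1 was in the list without a check that it has such a role, so the count of lower factors may be too high. The translocon genes sec-61.A (1.23 ± 0.60) and sec-61.G (0.93 ± 0.72) and the signal recognition particle gene srpa-72 (0.54 ± 0.20) were higher, and icd-1, for the beta subunit of the nascent chain associated complex (-0.91 ± 0.19), dnj-11 (-0.76 ± 0.46) and tct-1 (-0.60 ± 0.31) were lower. Leaving out 1 prep ended the call of 4 of these 6 genes: sec-61.G and srpa-72 without prep 2, 3 or 4, dnj-11 without prep 1, 2 or 4, and tct-1 without prep 1, 2 or 4. Their limma adjusted p then lay between 0.0589 for dnj-11 and 0.123 for sec-61.G, while sec-61.A and icd-1 passed without any single prep. Without prep 2 or without prep 4, 1 was higher and 1 lower. Of all features, 2361 of 20031 were higher and 3059 lower without prep 2. Without prep 4, 2073 of 20006 were higher and 3083 lower. Of 8 genes listed under TOR signalling, which raises ribosome production in growing cells, 0 passed in limma and 0 had an unadjusted p under 0.05 (median 0.04). Over all features the shares were 37.9% and 48.9%. The TOR list includes ncl-1 and aak-2, whose part in TOR signalling was not checked, and it holds no S6 kinase gene. Of 45 mitochondrial ribosomal protein genes, which build the separate ribosome of that organelle, 12 were lower (26.7%, beside 20.9% of all features) and 0 higher (13 and 0 unadjusted), with a median of -0.23. The lowest were mrps-11 (-1.30 ± 0.47), mrpl-51 (-1.15 ± 0.31) and mrps-17 (-1.13 ± 0.26). Without prep 1 or without prep 2, 6 of the 45 were lower. Over all features 3724 of 20002 were lower without prep 1, and 3059 of 20031 without prep 2. The share in the list was then below that of all features.

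**Figure D4:**
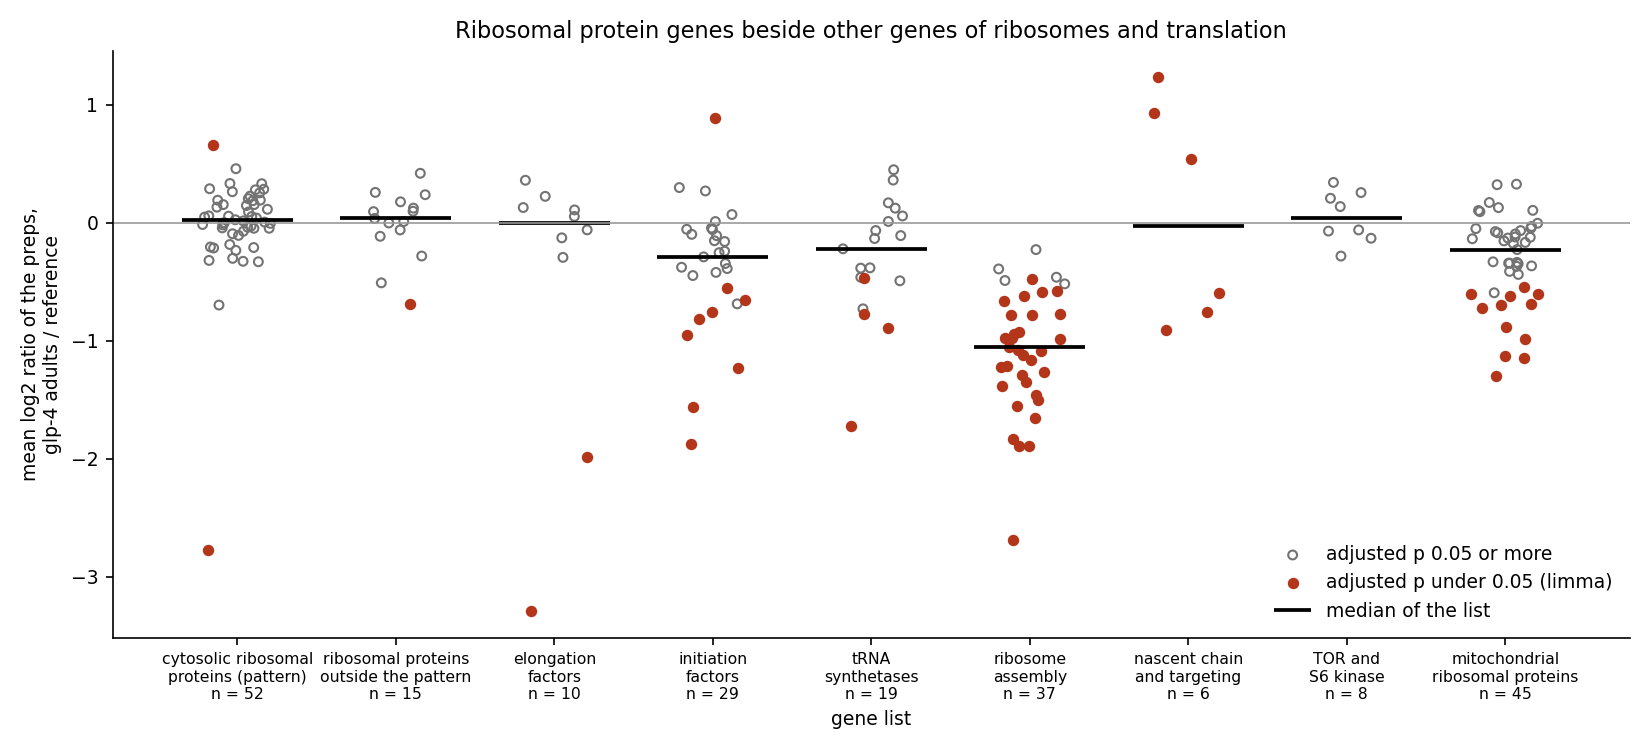
Mean log2 ratio over the preps (y axis) of each gene in 9 lists (x axis), with filled symbols past the limma threshold and a bar at the list's median. The cytosolic ribosomal proteins gather at 0 with rpl-11.1 far below, while the bar of the assembly genes is at -1.06.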

How the data were processed

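The authors deposited 1 column of log2 ratios per array over 21632 spots. The base was read from the values: all ratios below 1 are whole multiples of 0.001 within 2e-06. How the authors centred the arrays is not given in the sources used here, nor are scanner, background correction, normalization and dyes, and the direction is likely only. The array medians were 0.0759, -0.0454, -0.0695 and -0.0306 for preps 1 to 4, and no further centring was applied. Signal over background is not known here, so precision rests on having 4 arrays. The platform annotation named 1 gene for 16450 spots, of which 16360 matched RefSeq genes of WBcel235 by gene number, with 0 symbols changed. Probes of a gene were averaged per array.

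The mean was tested against 0 with limma 3.58.1 in R 4.3.3 (intercept only, eBayes, two-sided, Benjamini-Hochberg) for 19981 features with at least 3 values. The reference is the only wild-type RNA, so its own spread is left out. On simulated data with the spread of these 19981 features, 24 of 100 genes changed by 1 log2 unit and 82 of 100 changed by 2 were recovered. There 19781 features were unchanged, while 37.9% passed in the real data. The adjustment was therefore stricter in the simulation, and these shares do not give the power of the real test. Python 3.11.15, pandas 2.3.3 and matplotlib 3.10.9 were also used.

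Named members were those in numbered pairs, the 10 highest and 10 lowest means and any called gene. In each list, they were the 3 furthest from 0 among called genes. Other names were chosen after their values were seen. Members and lists were chosen with earlier results of these data known. Symbols rplp and rpsa were added to the list outside the pattern after the files were seen, when without them it had 11 genes.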

Additional observations from a re-analysis of the deposited data

Results flagged for a closer look

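On a test for 1 stray value among 4 preps, run over 83 genes with 4 values, 5 genes had an array that stood apart, and chance gives about 1 in 20. Among ribosomal protein genes, rpl-35 had -0.49 on prep 2 against -0.16 to -0.14 on the other preps, rpl-7 had -0.41 on prep 2 against 0.10 to 0.16, and rps-13 had 0.82 on prep 4 against 0.31 to 0.35. Of the other genes, icd-1 had -1.20 on prep 2 against -0.85 to -0.79, and sec-61.A had 0.33 on prep 1 against 1.46 to 1.61.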

How the results depend on the processing

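The gene rpl-11.1 stayed lower and past the threshold under all alternatives run, between -2.82 (arrays scaled to one spread) and -2.75, and rpl-11.2 stayed above 0. The higher ribosomal protein genes numbered 2 with arrays scaled to one spread, with rps-13 added, 0 on preps 1 and 2, 0 on preps 3 and 4, and 0 to 1 with a prep left out. The lower ones numbered 2 with each probe tested singly (a probe of rpl-42 added), 2 on preps 3 and 4 (rpl-32 added) and 1 to 2 with a prep left out. Their median ranged from -0.05 to 0.11 with a prep left out. Lower assembly genes numbered 18 on preps 1 and 2, 19 on preps 3 and 4 and 26 to 30 with a prep left out. Over all features, 926 of 19596 were higher and 1847 lower on preps 1 and 2. On preps 3 and 4, 2042 of 19499 were higher and 2517 lower. With a prep left out, 2073 to 2789 features were higher and 3059 to 3724 lower. Fits on 2 arrays have fewer degrees of freedom.

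Signs turned for genes that did not pass. On preps 1 and 2, rpl-39 had -0.21, rps-10 -0.10, rpl-23A.1 0.0711 and rplp-2.1 -0.10. On preps 3 and 4, rpl-37.1 had 0.12, rpl-37.2 0.19 and rps-12 0.0354. With arrays centred on their medians rpl-37.2 had 0.0129. With each probe tested singly, the second probe of rpl-42 had 0.11. With a prep left out, rpl-37.2 ranged from -0.0747 to 0.11, rpl-39 from -0.21 to 0.69 and rpl-23A.1 from -0.21 to 0.17. The causes were not tested.

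The title date as a random block could not be fitted with 1 shared date among 4 arrays. Blocks of preps 1 and 2 and of preps 3 and 4, chosen after seeing the data, had a correlation of -0.06 and left 1 ribosomal protein gene higher and 1 lower. No paired analysis was possible because there is 1 group.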
